A study of Homo sapiens with 6 samples.

Results

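The genes described here encode heat shock proteins, J-domain co-chaperones, the cytosolic chaperonin and the transcription factor HSF1. They were chosen by a rule on gene symbols, set with earlier results of these data known. It takes the families HSPA, HSPB, HSPD, HSPE and HSPH, the HSP90A genes, DNAJA, DNAJB and DNAJC, the CCT subunits, TCP1 and HSF1. It leaves out the endoplasmic reticulum stress genes HSPA5, DNAJB9, DNAJB11 and DNAJC3. The rule took 81 of the 19610 genes in the table, and 64 of them had enough counts to be tested. It is wider than the cytosol: 9 of the 81 are known to work in mitochondria and 8 in or at the endoplasmic reticulum. Of the 17 members not tested, 6 had no count in any library and the other 11 had at most 19 in any one. The rule also takes 3 readthrough genes, whose transcripts run from a chaperone gene into its neighbour.

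The libraries came from SH-SY5Y, an established human neuroblastoma line with the genotype WT, in which RNA sequencing counted transcripts per gene. The 3 control libraries were from cells given DMSO, the solvent, and the 3 treated libraries from cells given SGC707, which blocks PRMT3, an enzyme that methylates arginine in proteins. Each group has replicates A, B and C, and values given in threes follow that order. The sources used here give neither the dose nor the length of treatment. Since no label says that replicates were grown apart, p-values measure only how far these libraries vary, which may be technical.

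Total counts were 11658728 to 15437602 per library, but mitochondrially encoded genes took 46.7% to 60.7% of them with DMSO and 24.3% to 37.7% with SGC707, which left 6066305 to 6327895 and 7559322 to 8999358 counts on nuclear genes. Of 12 markers of adrenergic neuroblastoma, 11 were tested and TH was at 0 in all 6 libraries. The summed level of the 12 was 5630 to 7021 normalised CPM (the count as a rate per library size, scaled between libraries by TMM) with DMSO and 4383 to 5262 with SGC707. Mesenchymal markers summed to 59.3 to 71.6, epithelial ones to at most 3.34 and leukocyte ones to at most 0.234, with ESRP1, PTPRC, CD3E and SPI1 at 0 throughout. Whether these differences in depth and in adrenergic markers had a part in the values below was not tested. In bulk RNA, fewer cells of a kind and less RNA per cell cannot be told apart. Library SGC707 C stood apart from the other treated libraries in its GC-rich and AT-rich genes. For many members the fold change is therefore followed by the value without that library.

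Chaperones bind proteins that are not yet folded or have lost their fold. HSP70 proteins hold short exposed stretches of a client, J-domain proteins bring clients to HSP70 and start its ATP hydrolysis, and HSP110 proteins help it release the nucleotide. HSP90 acts later on kinases, steroid receptors and other near-folded clients, and the ring-shaped CCT chaperonin encloses actin and tubulin while they fold. When unfolded protein builds up, HSF1 is freed from chaperones, forms trimers and switches on the inducible members. In neurons the same proteins handle tau, and tau phosphorylation is among the subjects the study names.

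No chaperone or J-domain gene passed the test between SGC707 and DMSO. Of the 64 tested members, 0 rose and 0 fell at an edgeR adjusted p under 0.05, where 0.0082% of the 12196 tested genes rose and 0.0164% fell. The lowest edgeR adjusted p of a member was 0.2102, that of the chaperonin subunit gene CCT3. The members' median log2 fold change, SGC707 over DMSO, was 0.06, beside 0.02 for all tested genes, and 37 of 64 were positive (57.8%, beside 52.8% of all tested genes). Scaling by library totals alone, which moved the median of all genes to 0.69, made 61 of the 64 positive. At an unadjusted p under 0.05, 6 members were higher (9.38%, beside 5.62% of all tested genes) and 3 lower (4.69%, beside 7.13%). In 11 members all SGC707 libraries lay above all DMSO libraries (17.2%, beside 10.8% of all tested genes), and in 3 they lay below (4.69%, beside 9.78%). In DESeq2, 1 member was called higher and 1 lower of 60 with an adjusted p, where 0.469% of 10019 genes were called higher and 2.41% lower.

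**Figure D1:**
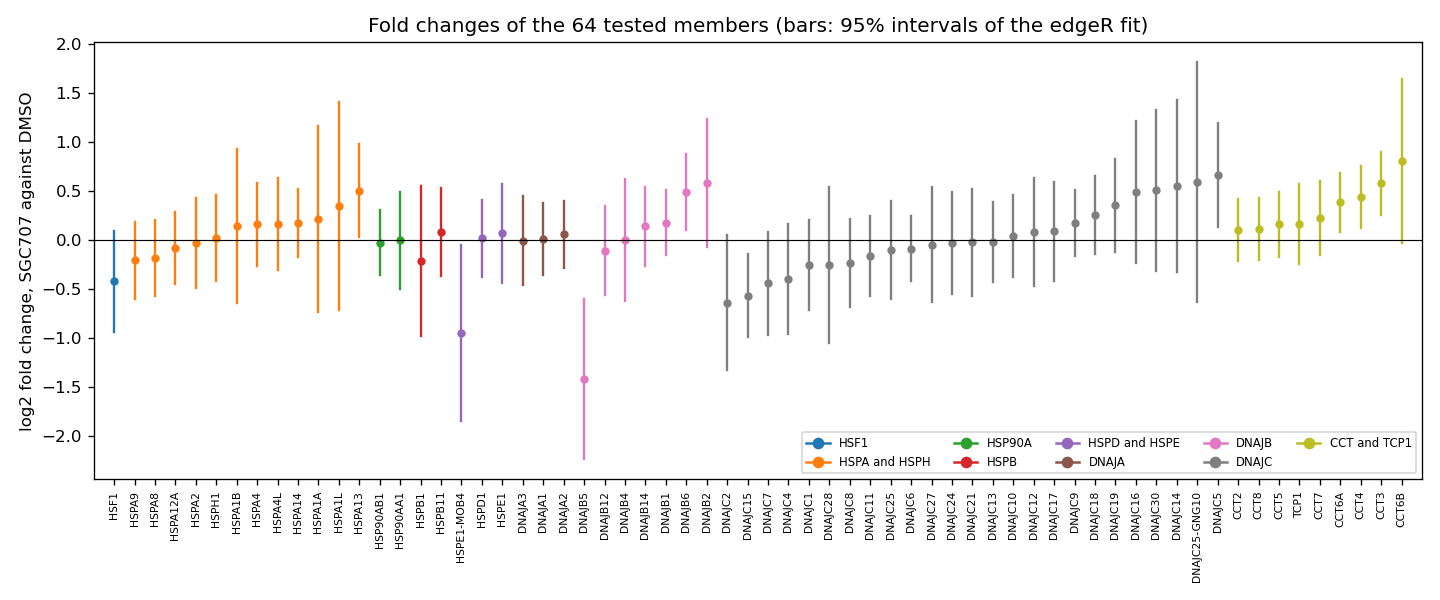
Log2 fold change of SGC707 against DMSO (y axis) for each of the 64 tested members, grouped and coloured by family, with bars for the 95% interval of the edgeR fit. Values run from -1.42 (DNAJB5) to 0.80 (CCT6B), and the 9 chaperonin-family genes at the right all lie above 0.

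Among the most abundant members, which carry the constitutive load of protein folding, the HSP90 genes had close mean levels in both groups, but their treated libraries disagreed. HSP90AB1, HSP90AA1 and HSPA8 together made up 40.7% to 44.7% of the members' counts in each library. Per kilobase of the longest annotated coding transcript, HSP90AB1, the constitutive cytosolic HSP90, had 651 normalised CPM in controls and 639 in treated cells. On the same scale HSPA8, the constitutive HSP70 also called HSC70, stood at 405 and 356, and HSP90AA1, the more inducible HSP90, at 351 and 350.3. In each of these genes SGC707 A and B lay below every control, while SGC707 C lay above or among the controls. Without SGC707 C the log2 fold changes were -0.12 (HSP90AB1), -0.34 (HSPA8) and -0.29 (HSP90AA1). All members together took 1.49%, 1.52% and 1.64% of nuclear counts with DMSO and 1.503%, 1.55% and 1.8% with SGC707. SGC707 C, the highest (95% Wilson interval 1.79% to 1.81%, counting error only), stood above DMSO C (1.63% to 1.65%) by more than counting error.

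The heat shock element is the promoter sequence that HSF1 trimers bind. It was searched for as GAANNTTCNNGAA, and as TTCNNGAANNTTC on the other strand, in RefSeq promoters (build GRCh38.p14) from 250 bases before to 50 bases after each annotated start. Promoters were found for 70 members, and 7 of them held the element (10.0%), against 80 of 15060 genes of the table (0.531%). The 9 stretches found are shown because they mark the members with the plainest sequence for heat induction. Each is written 5′ to 3′ along the gene's strand, with the element in capitals. In HSPD1 the capitals hold overlapping matches, and the stretch is cut at the edge of its window. That window belongs to the HSPD1 start at base 197499840. The stretch lies downstream of the other HSPD1 start, at base 197500274, which is the one nearest HSPE1.
HSP90AA1, chr14:102087106-102087146, minus strand: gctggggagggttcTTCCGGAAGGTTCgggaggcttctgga
HSP90AB1, chr6:44247764-44247804, plus strand: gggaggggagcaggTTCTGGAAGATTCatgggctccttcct
HSP90AB1, chr6:44247817-44247857, plus strand: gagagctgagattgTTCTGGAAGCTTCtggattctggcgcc
HSPA8, chr11:123062165-123062205, minus strand: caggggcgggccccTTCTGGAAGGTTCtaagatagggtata
HSPA8, chr11:123062340-123062380, minus strand: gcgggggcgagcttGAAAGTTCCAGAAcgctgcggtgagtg
DNAJA1, chr9:33025262-33025302, plus strand: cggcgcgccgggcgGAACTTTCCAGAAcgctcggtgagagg
DNAJB6, chr7:157336859-157336899, plus strand: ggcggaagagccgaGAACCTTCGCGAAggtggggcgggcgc
HSPD1, chr2:197500054-197500090, minus strand: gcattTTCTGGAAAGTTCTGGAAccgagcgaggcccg
HSPA6, chr1:161524452-161524492, plus strand: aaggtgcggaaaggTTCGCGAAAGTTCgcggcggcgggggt

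A match in these windows is a description of letters, and HSPA1A and HSPA1B, known heat-induced genes, had none of this strict form. The 6 tested members with the element had log2 fold changes of -0.00 (HSP90AA1), -0.03 (HSP90AB1), -0.19 (HSPA8), 0.01 (DNAJA1), 0.48 (DNAJB6) and 0.02 (HSPD1). HSPA6, the strictly heat-induced HSP70, had 1 count in a single treated library, SGC707 B, and the limit that a count of 0 allows elsewhere is 0.181 to 0.293 normalised CPM. Over the 12 listed heat-inducible HSF1 targets among the members, 8 log2 fold changes were positive and 4 negative, with a median of 0.02 and a range of -0.22 to 0.21. Of these 12, 0 had an unadjusted p under 0.05, beside 5.62% of all tested genes higher and 7.13% lower. In 0 did the groups separate, beside 10.8% above and 9.78% below, and with so few genes a count of 0 is near those shares.

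HSP90AB1 stood at 1737, 1771.5 and 1712 normalised CPM in the DMSO libraries and at 1543, 1667 and 1916 in the SGC707 libraries. SGC707 A and B lay below every DMSO library and SGC707 C above them. Its log2 fold change was -0.03 (95% interval -0.36 to 0.30, edgeR adjusted p = 0.957), and -0.12 without SGC707 C. HSP90AA1 had the same order, with 1181, 1288 and 1230.1 in the DMSO libraries and 981, 1046 and 1662 in the SGC707 libraries. Of 50-base stretches, 18.8% in HSP90AB1 and 17.5% in HSP90AA1 also occur in other genes, mostly pseudogenes. The difference between SGC707 C and the other treated libraries was wider than any among the controls, and the log2 fold change was -0.00 (95% interval -0.50 to 0.49, edgeR adjusted p = 0.996), and -0.29 without SGC707 C.

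HSF1, the regulator of the heat shock response, stood at 39.9, 42.9 and 33.9 normalised CPM in the DMSO libraries. Under SGC707 it stood at 30.7, 35.4 and 20.9. SGC707 B overlapped the lowest control, and the other treated libraries lay below all controls. Its fitted log2 fold change was -0.42 (95% interval -0.94 to 0.09, edgeR adjusted p = 0.481), and -0.24 without SGC707 C.

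Among the HSP70 and HSP110 genes, 12 of 14 were tested, of which 8 were positive and 4 negative, with a median of 0.15. HSPA8 stood at 969, 941 and 1081 normalised CPM in the DMSO libraries and at 851, 727 and 1051 in the SGC707 libraries. As in the HSP90 genes, SGC707 A and B were below the controls, but here SGC707 C was within their range. Its log2 fold change was -0.19 (SE 0.17, edgeR adjusted p = 0.675), and -0.34 without SGC707 C.

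The inducible pair HSPA1A (GRCh38 chromosome 6, 31815464 to 31817946) and HSPA1B (31827735 to 31830255) encode the same heat-induced HSP70 side by side. Of the 50-base stretches of the HSPA1A transcript, 72.6% also occur in that of HSPA1B, so the split of reads between them is uncertain. Summed, the pair stood at 21.1, 29.2 and 29.9 normalised CPM in the DMSO libraries and at 37.7, 36.2 and 16.6 in the SGC707 libraries. SGC707 A and B lay above all controls and SGC707 C below all of them. HSPA1A alone stood at 6.96, 17.9 and 15.2 with DMSO and at 17.6, 19.9 and 8.88 with SGC707 (log2 fold change 0.21, SE 0.41, edgeR adjusted p = 0.866). HSPA1B stood at 14.1, 11.3 and 14.7, and at 20.1, 16.3 and 7.71 (log2 fold change 0.14, SE 0.34, edgeR adjusted p = 0.897). Without SGC707 C their values were 0.48 and 0.44.

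HSPA13, an HSP70 relative in microsomal membranes, had the lowest p of this family. It stood at 58.8, 52.7 and 70.4 normalised CPM in the DMSO libraries and at 72.3, 76.6 and 108.9 in the SGC707 libraries, so the groups separated. On the log2 scale the fold change was 0.50 (SE 0.20, edgeR adjusted p = 0.368), and 0.29 without SGC707 C. HSPA9, the mitochondrial HSP70 also called mortalin, stood at 373, 399.8 and 371 with DMSO and at 292, 289.8 and 407 with SGC707. SGC707 A and B lay below all controls and SGC707 C above them. The value was -0.21 on the log2 scale (SE 0.17, edgeR adjusted p = 0.634), and -0.39 without SGC707 C (edgeR adjusted p = 0.0422).

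The HSP110 family members HSPA4 and HSPH1 serve HSP70 as exchange factors. HSPA4 stood at 208.2, 207.8 and 229 normalised CPM with DMSO and at 196, 220.2 and 304 with SGC707 (log2 fold change 0.16, SE 0.18, edgeR adjusted p = 0.752). HSPH1, an HSP110 protein, stood at 258, 249 and 277, and at 214, 240.3 and 341 (log2 fold change 0.02, SE 0.19, edgeR adjusted p = 0.976). In both, SGC707 C was the highest of the 6 libraries and SGC707 A the lowest, while SGC707 B lay within the control range in HSPA4 and below it in HSPH1. Without SGC707 C the values were -0.05 for HSPA4 and -0.21 for HSPH1.

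Small heat shock proteins, which hold unfolded clients without ATP, were mostly at the edge of detection in these cells. Of 9 HSPB genes 2 were tested. HSPB1, also called HSP27, stood at 46.1, 45.5 and 37.4 normalised CPM in the DMSO libraries and at 48.9, 43.5 and 18.6 in the SGC707 libraries. SGC707 A and B lay within or above the control range and SGC707 C at less than any of them, with log2 fold change -0.22 (SE 0.33, edgeR adjusted p = 0.822) and of 0.10 without SGC707 C. HSPB11, a component of the intraflagellar transport machinery, stood at 16.6, 17.1 and 19.3, and at 18.1, 16.03 and 22.1 (log2 fold change 0.09, SE 0.19, edgeR adjusted p = 0.890). The HSPB11 value without SGC707 C was -0.055. HSPB6 was not tested for lack of counts, its counts being 7, 19 and 8 under DMSO and 2, 3 and 2 under SGC707.

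HSPD1 and HSPE1 encode the mitochondrial chaperonin HSP60 and its lid HSP10, and lie head to head on chromosome 2, with their nearest RefSeq starts 105 bases apart. HSPD1 stood at 423, 476 and 553 normalised CPM in the DMSO libraries and at 428, 466 and 576 in the SGC707 libraries (log2 fold change 0.02, SE 0.17, edgeR adjusted p = 0.978). HSPE1 stood at 34.2, 56.2 and 47.5, and at 49.3, 40.5 and 54.8 (log2 fold change 0.07, SE 0.22, edgeR adjusted p = 0.922). Without SGC707 C the values were -0.12 for HSPD1 and -0.037 for HSPE1. The groups overlapped in both genes, and pseudogenes share 50-base stretches with HSPD1 (24.8% shared with any other gene). The readthrough gene HSPE1-MOB4 had log2 fold change -0.95 (SE 0.39, edgeR adjusted p = 0.372) at 1.402 to 4.59 normalised CPM, but 94.5% of its 50-base stretches also belong to its neighbours, so its count is uncertain.

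**Figure D2:**
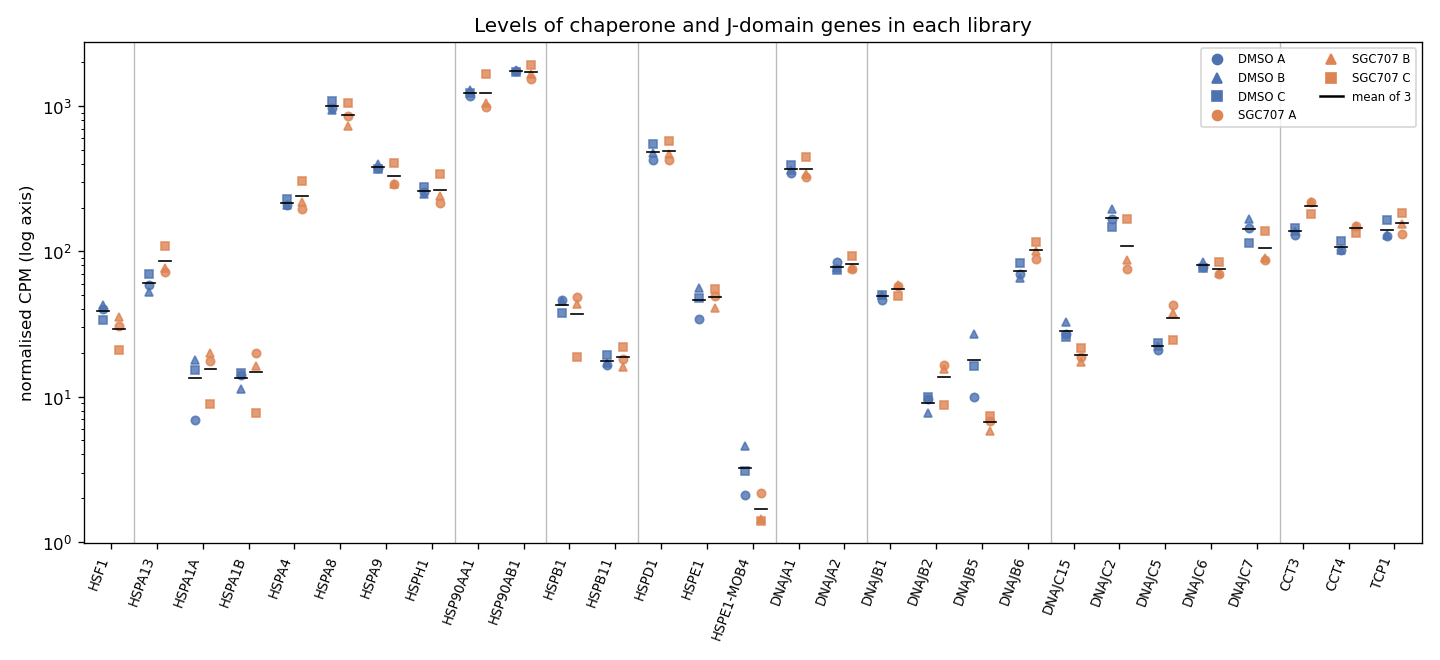
Normalised CPM (log axis) of 29 members, which are the fixed members and those with the lowest p in each family. Blue points are DMSO, orange SGC707, shapes replicates A, B and C, and black lines the mean of 3. Grey lines divide the families. SGC707 C (orange squares) is the highest treated library in HSP90AA1 (1662) and HSPH1 (341) and the lowest in HSPB1 (18.6) and HSPA1B (7.71).

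J-domain proteins choose which clients HSP70 receives. Class A and B members resemble the bacterial DnaJ, and class C members share only the J domain. Of the 4 DNAJA genes 3 were tested, with log2 fold changes between -0.01 and 0.06, the narrowest range among families with at least 3 tested. DNAJA1, the main partner of cytosolic HSP70, stood at 349, 363 and 393 normalised CPM in the DMSO libraries and at 327, 340.3 and 447 in the SGC707 libraries (log2 fold change 0.01, SE 0.16, edgeR adjusted p = 0.984), and its value without SGC707 C was -0.15. DNAJA2 stood at 84.2, 76.6 and 74.6, and at 75.4, 76.5 and 93.0 (log2 fold change 0.06, SE 0.15, edgeR adjusted p = 0.907), and its value without SGC707 C was -0.050. DNAJA4 was listed at 0 in every library.

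In the DNAJB family 7 of 10 genes were tested, 4 positive and 3 negative, with a median of 0.14. DNAJB1, the J-domain partner of heat-induced HSP70 and of the disaggregase, stood at 46.6, 49.9 and 50.3 normalised CPM with DMSO and at 58.0, 58.4 and 49.6 with SGC707. SGC707 A and B lay above the controls and SGC707 C among them, with log2 fold change 0.18 (SE 0.15, edgeR adjusted p = 0.641). DNAJB6 (chromosome 7, 157335381 to 157417439), which suppresses polyglutamine aggregation, stood at 69.5, 65.7 and 83.9, and at 88.6, 101.2 and 116.5. All treated libraries lay above all controls. The log2 fold change was 0.48 (95% interval 0.10 to 0.87, edgeR adjusted p = 0.308), and 0.37 without SGC707 C. Of the 50-base stretches of DNAJB6, 19.1% also occur in other genes, mostly in AP001000.1 (18.9%).

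DNAJB2, a neuronal J-domain protein that hands clients to the proteasome, stood at 9.63, 7.72 and 9.99 normalised CPM with DMSO and at 16.6, 15.6 and 8.72 with SGC707. SGC707 C lay among the controls and the other treated libraries above them. The log2 fold change was 0.58 (SE 0.28, edgeR adjusted p = 0.442), and 0.82 without SGC707 C (edgeR adjusted p = 0.0359).

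DNAJB5 (chromosome 9, 34989641 to 34998900) had the most negative log2 fold change of the tested members. It stood at 10.0, 27.0 and 16.4 normalised CPM in the DMSO libraries and at 6.82, 5.84 and 7.32 in the SGC707 libraries. The treated libraries lay close together and below all controls, which ranged widely. Its fitted log2 fold change was -1.42 (SE 0.35, 95% interval -2.23 to -0.60, edgeR adjusted p = 0.233), and DESeq2 called it lower (-1.43, DESeq2 adjusted p = 0.0112). Without DMSO B, the highest control, the value was -0.99 (edgeR adjusted p = 0.774).

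Of the 28 DNAJC genes 25 were tested, 11 positive and 14 negative, with a median of -0.03. Their extremes were DNAJC5 at the top and DNAJC2 at the bottom. DNAJC5 (chromosome 20, 63895182 to 63936031) encodes the synaptic vesicle co-chaperone CSPα, which keeps SNAP25 fit for release. It stood at 21.1, 22.2 and 23.3 normalised CPM in the DMSO libraries and at 42.9, 37.7 and 24.4 in the SGC707 libraries. The groups separated, but SGC707 C lay close to the controls. On the log2 scale the fold change was 0.66 (95% interval 0.13 to 1.19, edgeR adjusted p = 0.309), and 0.86 without SGC707 C (edgeR adjusted p = 0.0272).

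DNAJC2, which sits on the ribosome with HSPA14 and meets the emerging chain, stood at 167, 196 and 148 normalised CPM with DMSO and at 75.6, 87.1 and 166.4 with SGC707. SGC707 A and B lay far below the controls and SGC707 C within them. The log2 fold change was -0.64 (SE 0.30, edgeR adjusted p = 0.421), and -1.07 without SGC707 C (edgeR adjusted p = 0.0272). DNAJC7, a co-chaperone with TPR repeats that binds both HSP70 and HSP90, stood at 145, 168 and 115, and at 87.0, 90.4 and 138. It had the same order of libraries, with log2 fold change -0.44 (SE 0.23, edgeR adjusted p = 0.471), and -0.69 without SGC707 C (edgeR adjusted p = 0.0440). HSPA14, the ribosome partner of DNAJC2, had a value of the other sign, 0.17 (SE 0.15, edgeR adjusted p = 0.662).

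DNAJC15, a mitochondrial inner membrane protein related to the import motor, was below all controls in every treated library. It stood at 27.2, 32.6 and 25.7 normalised CPM in the DMSO libraries and at 18.8, 17.2 and 21.7 in the SGC707 libraries. Its fitted log2 fold change was -0.57 (SE 0.18, 95% interval -0.99 to -0.14, edgeR adjusted p = 0.291), and -0.66 without SGC707 C (edgeR adjusted p = 0.0440). Its relative in the import motor, DNAJC19, had 8.29, 9.28 and 11.2 with DMSO and 13.1, 11.4 and 12.3 with SGC707, all above the controls (log2 fold change 0.35, SE 0.21, edgeR adjusted p = 0.511). The 9 mitochondrial members were 4 positive and 5 negative, with a median of -0.01, and the 8 at the endoplasmic reticulum 5 positive and 3 negative, with a median of 0.09. DNAJC6, the neuronal auxilin that uncoats clathrin vesicles, stood at 78.5, 84.6 and 77.3, and at 69.9, 71.5 and 84.7 (log2 fold change -0.09, SE 0.14, edgeR adjusted p = 0.832).

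The 10 members listed for links to tau or neurodegeneration, among them HSPA8, HSPB1, DNAJB6, DNAJC5 and DNAJC7, were 3 positive and 7 negative, with a median of -0.02 and a range of -0.44 to 0.66. In 2 of the 10, DNAJB6 and DNAJC5, the treated libraries all lay above the controls, and in 0 below, beside 10.8% and 9.78% of all tested genes.

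The cytosolic chaperonin is a double ring built from TCP1, CCT2, CCT3, CCT4, CCT5, CCT6A, CCT7 and CCT8 in equal number, and CCT6B is a testis form of one subunit. All 8 subunit genes had positive log2 fold changes, from 0.10 (CCT2) to 0.58 (CCT3), where 52.8% of all tested genes were positive. Their median was 0.19, beside 0.02 for all tested genes. None passed the test in edgeR, with 3 at an unadjusted p under 0.05 (CCT3, CCT4 and CCT6A, all higher, or 37.5% of the 8, beside 5.62% of all tested genes). Summed, the 8 genes took 0.239%, 0.238% and 0.283% of nuclear counts with DMSO and 0.308%, 0.314% and 0.319% with SGC707. The groups did not overlap, although the controls also differed among themselves. The 8 values were positive under each of the 15 alternative fits, which reuse the same 6 libraries and are not independent of each other. Apart from library totals, their medians ran from 0.11 without SGC707 C to 0.34 without DMSO C. Library totals alone gave 0.83, but put the median of all genes at 0.69 and made 11553 of 12196 genes positive.

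CCT3 (chromosome 1, 156308968 to 156367873) stood at 130.1, 138 and 145 normalised CPM in the DMSO libraries and at 217, 218 and 181 in the SGC707 libraries. The lowest treated library was above the highest control. On the log2 scale the fold change was 0.58 (SE 0.14, 95% interval 0.26 to 0.90, edgeR adjusted p = 0.210). DESeq2 called it higher (0.57, DESeq2 adjusted p = 0.0394). CCT4 (chromosome 2, 61868089 to 61888804) stood at 102.4, 101.6 and 118, and at 149.6, 150.5 and 135, with separate groups and log2 fold change 0.44 (SE 0.14, edgeR adjusted p = 0.283). In both genes SGC707 C was the treated library closest to the controls, and without it the values were 0.66 (edgeR adjusted p = 0.0272) and 0.48 (edgeR adjusted p = 0.0366).

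CCT6A stood at 235, 229 and 256 normalised CPM with DMSO and at 307, 296 and 339 with SGC707, also with separate groups and log2 fold change 0.38 (SE 0.13, edgeR adjusted p = 0.304). The other 5 subunit genes overlapped between the groups, so 3 of the 8 lay above all controls (37.5%, beside 10.8% of all tested genes). TCP1, the founding subunit, stood at 127, 129 and 164, and at 132, 154 and 184 (log2 fold change 0.16, SE 0.18, edgeR adjusted p = 0.735). Without SGC707 C its value was 0.03. Per kilobase of the longest annotated coding transcript, the 8 genes ranged from 42.5 (CCT4) to 96.9 (CCT2) normalised CPM with DMSO. With SGC707 they ranged from 57.5 (CCT4) to 115 (CCT6A). The transcript expressed may be shorter, so the range does not measure how evenly the subunits are made.

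**Figure D3:**
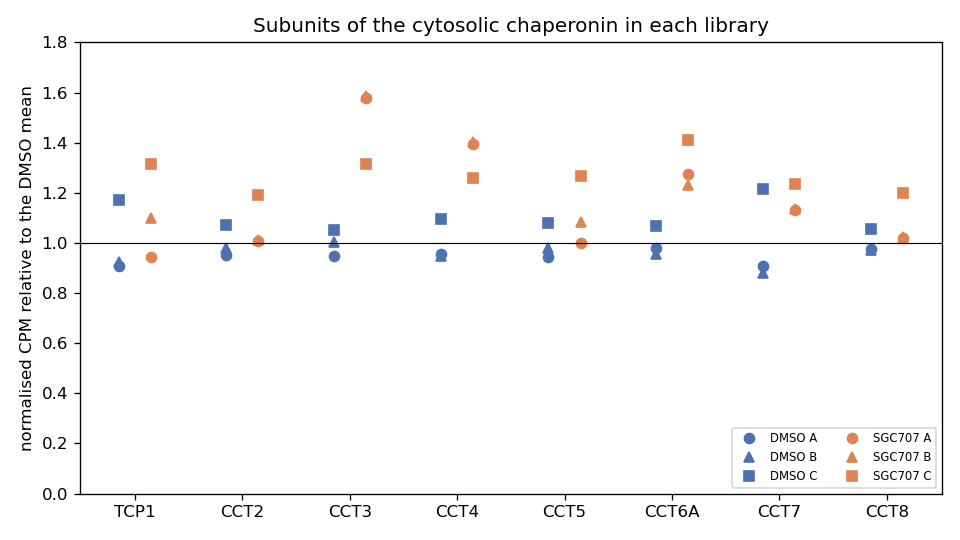
Normalised CPM of each chaperonin subunit gene divided by its DMSO mean (y axis, from 0), with blue points for DMSO, orange for SGC707 and shapes for replicates A, B and C. The treated libraries clear the controls in CCT3 (181 to 218 against 130.1 to 145 normalised CPM), CCT4 and CCT6A, and overlap them in the other 5 genes. Of all tested genes, 10.8% lie above the controls in this way.

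Of the listed co-factors of these machines, 0 passed the test in edgeR. Of 24 HSP90 co-chaperone genes, 13 had positive and 11 negative log2 fold changes (median 0.05, with 0 higher and 2 lower at an unadjusted p under 0.05, or 8.33% lower beside 7.13% of all tested genes). Of 16 HSP70 co-chaperone genes, 6 were positive and 10 negative (median -0.09, with 0 higher and 1 lower, or 6.25% beside the same 7.13%). CDC37, which loads kinases onto HSP90, stood at 131.7, 142.4 and 94.7 normalised CPM in the DMSO libraries and at 80.7, 77.8 and 68.2 in the SGC707 libraries. The groups separated, with log2 fold change -0.70 (SE 0.18, edgeR adjusted p = 0.244), and DESeq2 called it lower. PPP5C, a phosphatase bound to HSP90 that can act on tau, stood at 69.96, 69.2 and 66.9, and at 49.8, 54.2 and 48.4, again separate (log2 fold change -0.43, SE 0.14, edgeR adjusted p = 0.283). Among HSP70 co-chaperones TOMM34 stood at 42.6 to 49.2 and 32.6 to 37.6 (log2 fold change -0.40, edgeR adjusted p = 0.326), and SGTA at 78.2 to 84.5 and 43.2 to 76.4 (-0.32, edgeR adjusted p = 0.585). The 43.2 of SGTA was SGC707 C alone, the other treated libraries standing at 76.4 and 75.1.

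Prefoldin, which brings actin and tubulin chains to the chaperonin, and other chaperonin co-factors gave 7 positive and 2 negative values among 9 tested genes (77.8% positive, beside 52.8% of all tested genes, with a median of 0.21). At an unadjusted p under 0.05, 1 was higher and 1 lower, or 11.1% each, beside 5.62% and 7.13% of all tested genes. PFDN2 was one of the negative ones, at 98.6 to 131.0 normalised CPM with DMSO and 72.5 to 92.4 with SGC707 (log2 fold change -0.54, SE 0.17, edgeR adjusted p = 0.285). TXNDC9, a chaperonin regulator, stood at 16.2 to 21.6 and 23.3 to 32.8 (log2 fold change 0.56, SE 0.21, edgeR adjusted p = 0.344). HSBP1, a small protein that binds HSF1 trimers and damps them, stood at 77.2, 87.2 and 98.4, and at 122, 124 and 132.9. Every treated library lay above every control, with log2 fold change 0.53 (SE 0.14, edgeR adjusted p = 0.258). HSF2 stood at 37.7 to 45.2 and 30.5 to 41.3 (log2 fold change -0.17, edgeR adjusted p = 0.707). Of 15 tested heat-inducible HSF1 targets outside the chaperone families, 7 were positive and 8 negative (median -0.07). ZFAND2A (-0.57, edgeR adjusted p = 0.338) and STIP1 (-0.20, edgeR adjusted p = 0.545) had the lowest p among them.

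Library SGC707 C stood apart from the other treated libraries along GC content, and the members followed. Across the 11536 nuclear genes that averaged 20 or more counts, the log2 difference between SGC707 C and the mean of SGC707 A and B had a Spearman correlation of -0.77 with the GC content of the transcript. Across the 64 tested members it was -0.58, as a description, since genes of a library share its preparation and depth. All 10 members with a GC content of at least 55% were lower in SGC707 C than in the mean of A and B, and 28 of 33 members under 45% were higher. HSPB1 (64.5% GC) differed by -1.31, HSPA1B (58.7%) by -1.23, HSPA1A (59.7%) by -1.07, DNAJB2 (61.6%) by -0.88 and HSF1 (63.9%) by -0.66 on the log2 scale. DNAJC2 (43.3%) lay at the other end, at 1.04.

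**Figure D4:**
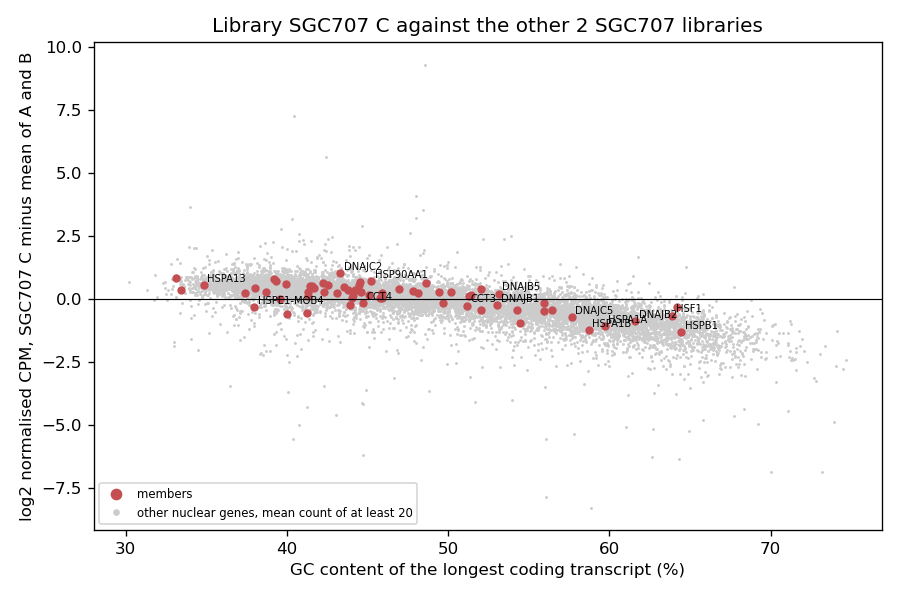
Log2 difference in normalised CPM between SGC707 C and the mean of SGC707 A and B (y axis) against the GC content of the longest coding transcript (x axis, %), with members in red and other nuclear genes in grey. GC-rich members such as HSPB1 (-1.31) lie low and AT-rich ones mostly above 0, along the same trend as the other genes.

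Without SGC707 C, 4 of 64 tested members were called higher (CCT3, CCT4, DNAJB2 and DNAJC5) and 4 lower (HSPA9, DNAJC2, DNAJC7 and DNAJC15), or 6.25% each, where 3.73% of all tested genes were called higher and 5.53% lower. That fit was not corrected for GC content, and whether the trends of SGC707 A and B had a part in it was not tested. With the GC content and length of transcripts corrected in all 6 libraries, 0 members were called, where 0.0738% of genes were higher and 0.451% lower. In that fit DNAJC5 had log2 fold change 0.73 (edgeR adjusted p = 0.0529), CCT3 of 0.51 (edgeR adjusted p = 0.0549), DNAJB2 of 0.67 (edgeR adjusted p = 0.0816) and DNAJB5 of -1.41 (edgeR adjusted p = 0.0889). Scaling by library totals alone called 21 members higher and 0 lower, where 21.1% of all genes were higher and 0.254% lower.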

How the data were processed

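Per the file headers and values, the authors deposited unscaled read counts for each gene symbol in all 6 libraries. HISAT2, StringTie and GRCh38 are named per the submitters' processing notes, with versions, annotation and strand setting not given in the sources used here. Symbols were matched to GENCODE release 29 on GRCh38 for coordinates, length and GC content (19294 directly, 269 by synonym, 47 unmatched).

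All genes were fitted in edgeR 4.0.16 (R 4.3.3): filterByExpr, TMM, robust glmQLFit and glmQLFTest, no covariate, with Benjamini-Hochberg adjustment over 12196 genes and a threshold of 0.05. SE is the log2 fold change over the square root of F. The procedure was tested on simulated data. Alternatives were other scalings, filters, DESeq2 1.42.0, limma-voom 3.58.1, each library left out, the replicate letter as a block, no mitochondrial genes, and a lowess correction (span 0.3) for GC content and length. Depth leaves 0 counts to mean up to 3 counts. Without a known strand setting, overlapping genes cannot be told apart. No pair of replicates agreed within sampling noise. Chi-square per degree of freedom was 12.4 for SGC707 A with B, 108 for A with C and 84.1 for B with C. Among DMSO libraries it was 25.2 to 62.9. All libraries were used in the main fit.

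Members and lists were chosen with earlier results of these data known. Named genes are 20 fixed members, the members of each family with the lowest p (4 in DNAJC, otherwise 2) and the 2 with the lowest p in each co-factor list. CCT6A, the ranges of other chaperonin subunits, HSPA14, DNAJC19 and HSPB6 were named after their values were seen. Figures were drawn with matplotlib 3.10.9.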

Additional observations from a re-analysis of the deposited data

How the results depend on the processing

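The counts of called members stayed at 0 with RLE factors, both other filters, limma-voom, no mitochondrial genes, the GC and length correction, the replicate block, an adjusted p under 0.01, and each library but SGC707 C left out. Leaving out 1 library gave 0 to 4 members higher, 0 to 4 lower and 0 to 3 co-factor genes called. The upper values were all without SGC707 C, where 3.73% of all tested genes were called higher and 5.53% lower. The co-factors called there were FKBP8, FLCN and UNC45A, all higher. DESeq2 called 1 member higher, 1 lower and 1 co-factor lower, CDC37, where 0.469% of genes were called higher and 2.41% lower. Library totals alone called 21 members and 15 co-factors higher, where 21.1% of all genes were called higher and 0.254% lower. With that scaling 61 members were positive, with a median of 0.70. The replicate block gave 35 positive members and a median of 0.05. The letters were not shown to pair the libraries, since same-letter deviations correlated at 0.08, -0.02 and 0.10. The cause of these changes was not tested.

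Of 29 named members, some changed sign. With library totals alone the log2 fold changes were positive for DNAJC15 (0.11), DNAJC6 (0.57), DNAJC7 (0.22), HSF1 (0.30), HSP90AA1 (0.63), HSP90AB1 (0.63), HSPA8 (0.45), HSPA9 (0.44) and HSPB1 (0.53). After the GC and length correction they were negative for DNAJA1 (-0.074), HSPB11 (-0.051), HSPD1 (-0.063), HSPE1 (-0.084) and HSPH1 (-0.012). limma-voom gave -0.003065 for DNAJA1 and -0.011 for HSPH1, and the replicate block -8.3e-04 and -0.0079. Leaving out 1 library moved DNAJA1 from -0.15 to 0.10, DNAJA2 from -0.050 to 0.11, HSP90AA1 from -0.29 to 0.14, HSP90AB1 from -0.12 to 0.044, HSPA1A from -0.10 to 0.48, HSPA1B from -0.15 to 0.44, HSPA4 from -0.053 to 0.29, HSPB1 from -0.47 to 0.10, HSPB11 from -0.055 to 0.19, HSPD1 from -0.12 to 0.12, HSPE1 from -0.11 to 0.24 and HSPH1 from -0.21 to 0.16. Over the alternatives other than library totals, adjusted p ran from 0.0272 to 0.791 for CCT3, 0.0366 to 0.857 for CCT4, 0.0359 to 0.911 for DNAJB2, 0.0112 to 0.774 for DNAJB5, 0.0272 to 0.911 for DNAJC2, 0.0272 to 0.857 for DNAJC5, 0.0440 to 0.915 for DNAJC7, 0.0440 to 0.862 for DNAJC15 and 0.0422 to 0.931 for HSPA9. Low counts limit precision: CCT6B had 10 to 36 counts per library and HSPE1-MOB4 18 to 47.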
